A study of Homo sapiens with 21 samples.

Results

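The TSC22 domain family comprises 4 genes, TSC22D1, TSC22D2, TSC22D3 and TSC22D4, and was followed across human MV4-11 leukaemia cells treated with ironomycin. The genes were matched by Ensembl identifier to these symbols, and all 4 were found among the 54042 genes of the count table. TSC22D3 was chosen by its rise at 24 h of ironomycin, so its 24 h values are given as a description without a test. The other members came in by family name. Of the 4 members, 3 passed the low-count filter and were among the 11610 genes tested. TSC22D1 did not pass and is given as raw counts.

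TSC22 proteins share a leucine zipper next to a conserved TSC box, through which they form dimers. TSC22D3 is also known as GILZ, the glucocorticoid-induced leucine zipper. Its short protein is a standard marker of glucocorticoid receptor activity, mediates part of the anti-inflammatory action of glucocorticoids in blood cells, and is also a known target of FOXO transcription factors. TSC22D1 was first described as a transcript stimulated by TGF-beta. TSC22D2, TSC22D4 and the long form of TSC22D1 bind the pseudokinase NRBP1 and take part in signalling by WNK kinases, which control cell volume.

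MV4-11 is a human acute myeloid leukaemia line that carries an MLL rearrangement and an internal tandem duplication of FLT3. Ironomycin, labelled AM5, is a derivative of salinomycin that sequesters iron in lysosomes. The 7 groups of 3 libraries were wild-type cells in DMSO, wild-type cells with ironomycin for 6 h, wild-type cells with ironomycin for 24 h, and HK2 knockout and PGP knockout cells, made with CRISPR, each in DMSO and with ironomycin for 24 h. HK2 encodes hexokinase 2 and PGP encodes phosphoglycolate phosphatase. The labels give no duration for DMSO, no clones and no edited sites. Whether the replicates were grown apart is not given, so a p-value here reflects only how these libraries vary, and that variation may be technical. RNA was measured with QuantSeq, which reads the 3′ end of transcripts.

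The 21 libraries held 3829274 to 6069264 counts (median 4823817), so that 3 counts corresponded to 0.498 to 0.803 CPM, the reads of a gene scaled to the library's TMM-adjusted size. Replicate 2 of the wild-type 6 h group stood apart. The SD of its log2 deviations from the other libraries of its group was 0.675, against 0.332 to 0.480 in the other 20 libraries. Myeloid and MLL-associated genes were present, with median levels of 87.1 CPM for CD33, 298 CPM for FLT3 and 57.6 CPM for HOXA9. Other genes of the same marker list were lower, with medians of 40.9 CPM for MEIS1, 17.6 CPM for SPI1, 10.0 CPM for MPO, 8.66 CPM for CSF1R and 0.427 CPM for LYZ. Among B-lymphoid markers, IGLL1 had a median of 25.5 CPM and CD79A of 0.213 CPM. The red cell gene HBA1 and the epithelial genes EPCAM and KRT18 had 0 counts in all libraries. In DMSO, HK2 was at 20.0 to 24.8 CPM in HK2 knockout and 42.4 to 69.5 CPM in wild-type libraries. PGP was at 71.0 to 83.6 CPM in PGP knockout and 86.8 to 95.5 CPM in wild-type libraries. Since the edited sites are not given, these 3′ levels check neither knockout.

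TSC22D3 (ENSG00000157514) lies on the minus strand of the X chromosome, where the GENCODE 29 annotation of GRCh38 places it at chrX:107713221-107777342. It has 17 coding transcripts with 17 start positions and 14 end positions. Of those ends, 5 lie within 100 bases of the commonest end. A 3′ count therefore sums transcripts and does not separate the short GILZ form from longer ones. RefSeq gives 4 promoter windows for TSC22D3, each from 250 bases before to 50 bases after a start. The letters GTAAACA, the core bound by FOXO factors, were searched on both strands, and 1 of the 4 windows held them. That window is shown because TSC22D3 is a known FOXO target. It is chrX:107717013-107717312 of GRCh38.p14, printed 5′ to 3′ on the minus strand, with the match, read as its reverse complement, in capitals.

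TSC22D3: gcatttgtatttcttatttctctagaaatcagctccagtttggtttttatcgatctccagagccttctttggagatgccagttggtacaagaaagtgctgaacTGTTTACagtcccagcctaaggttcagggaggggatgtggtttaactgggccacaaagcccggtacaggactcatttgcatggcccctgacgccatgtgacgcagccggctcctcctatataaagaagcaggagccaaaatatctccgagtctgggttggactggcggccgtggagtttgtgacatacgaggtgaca

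The match spans bases -147 to -141 from the start. The same letters occurred in 1202 of 35116 RefSeq promoter windows (3.42%). The glucocorticoid receptor half-site TGTTCT was in 14.8% of windows and in none of the 4 TSC22D3 windows. The windows reach only 250 bases before a start, so sites further upstream were not searched. It was in 1 of 5 windows of TSC22D1, and another TSC22D1 window held the E-box CACGTG, present in 7.26% of all windows. The cAMP response element TGACGTCA (1.85% of windows), the ATF4/CHOP element TGATGCAAT (0.236%) and the full receptor palindrome (0.00285%) were in no window of TSC22D1, TSC22D3 or TSC22D4. None of the searched motifs was in the 1 window of TSC22D4. These matches describe letters in the reference and were not measured in the cells. The counts were made on hg19, per the submitters' processing notes, so these coordinates were not joined to them.

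TSC22D3 was low in DMSO, higher at 6 h and higher again at 24 h. In wild-type DMSO libraries it was at 16.1, 18.2 and 15.1 CPM. After 6 h of ironomycin it was at 61.5, 74.9 and 80.8 CPM. The lowest 6 h library was thus more than 3 times the highest DMSO library, and the groups did not overlap. Here and below, separation of libraries only describes values, since the share of all tested genes separated in this way was not counted. TSC22D3 rose by 2.14 ± 0.17 (log2, SE), or 4.41-fold, at 6 h (edgeR quasi-likelihood test, adjusted p = 5.48e-09). In that comparison 22.0% of tested genes were called, 10.9% higher and 11.1% lower, and 90 genes had a larger log2 change. The 6 h test shares its DMSO libraries with the 24 h values on which TSC22D3 was chosen, and is not independent of them. Without the outlying 6 h library the change was 2.12 ± 0.18. In bulk libraries, more RNA per cell and more cells with the transcript cannot be told apart.

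At 24 h the wild-type libraries were at 91.6, 151 and 107 CPM. All lay above the 6 h libraries, with replicate 2 the highest. The fitted difference from DMSO was 2.83 ± 0.16 (log2, SE), or 7.10-fold, where 29.8% of tested genes were called, 15.3% higher and 14.6% lower. These 24 h values chose the gene, and nothing is read from them against that share. Between 6 h and 24 h the fitted difference was 0.69 ± 0.15, in a comparison that called 16.6% of tested genes. Replicate 2 at 24 h carried part of it, and without that library the difference was 0.45 ± 0.14.

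Both knockouts also had low TSC22D3 levels in DMSO and high levels at 24 h. HK2 knockout libraries were at 16.7, 18.7 and 18.6 CPM in DMSO and at 111, 134 and 133 CPM at 24 h. PGP knockout libraries were at 20.3, 18.3 and 20.0 CPM in DMSO and at 126, 139 and 149 CPM at 24 h. The treated and DMSO libraries did not overlap in either knockout. The fitted differences were 2.80 ± 0.16 in HK2 knockout cells and 2.82 ± 0.16 in PGP knockout cells, beside 29.4% and 31.5% of tested genes called. They are again a description of the values that chose the gene.

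**Figure D1:**
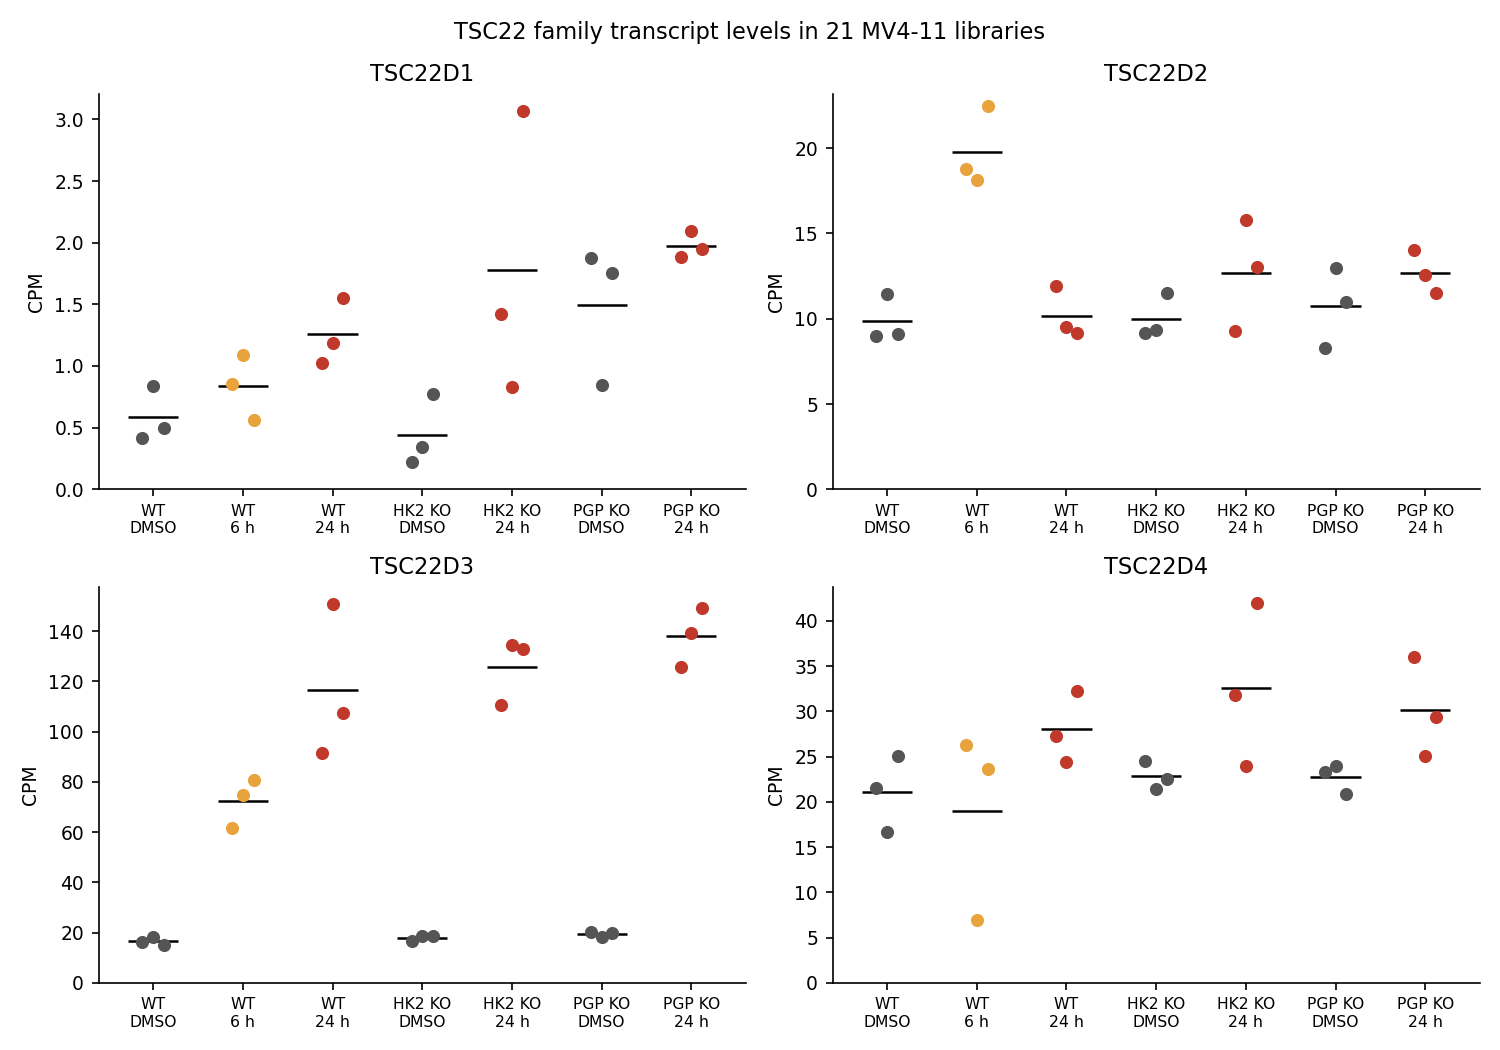
Level of each TSC22 family member, in CPM, in the 3 libraries of each of the 7 groups; points are libraries (grey for DMSO, orange for 6 h, red for 24 h) and lines are group means. TSC22D3 libraries lie at 15.1 to 20.3 CPM in DMSO, 61.5 to 80.8 CPM at 6 h and 91.6 to 151 CPM at 24 h, whereas TSC22D2 is highest at 6 h.

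The 24 h response of TSC22D3 was also compared between genotypes, as a description. The HK2 knockout response minus the wild-type response was -0.03 ± 0.23 (log2, SE), with a 95% interval from -0.47 to 0.42. For the PGP knockout the difference was -0.01 ± 0.22, with a 95% interval from -0.43 to 0.42. Without wild-type 24 h replicate 2 these differences were 0.20 and 0.22. Both changed sign with that 1 library.

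In DMSO, the knockouts had TSC22D3 means of 18.0 ± 1.11 CPM (SD, n = 3) for HK2 and 19.5 ± 1.10 CPM (SD, n = 3) for PGP, against 16.4 ± 1.56 CPM (SD, n = 3) in wild-type cells. All 3 PGP knockout libraries lay above all 3 wild-type libraries. The share of all tested genes separated in this way was not counted, so nothing is read from it. The difference of 0.25 ± 0.18 did not pass the edgeR test (adjusted p = 0.90), and its 95% interval ran from -0.10 to 0.60. The HK2 knockout difference of 0.14 ± 0.18 did not pass either (edgeR adjusted p = 1.0). Both tests use the DMSO libraries of the 24 h differences that chose TSC22D3, and are not independent of that choice. Few genes were called between genotypes in DMSO, which with 3 libraries per group does not show that few differ. The edgeR test called 1 gene (0.00861%) for the HK2 knockout and 0 genes (0.0%) for the PGP knockout. An unadjusted edgeR p under 0.05 was found for 606 (5.22%) and 648 (5.58%) of the tested genes. DESeq2 called 23 and 5 genes. For the difference in response, edgeR and DESeq2 called 0 genes (0.0%) in either knockout, and 267 (HK2) and 221 (PGP) had an unadjusted edgeR p under 0.05.

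Ordered by mean, the 3 DMSO groups had the lowest TSC22D3 levels, followed by the wild-type 6 h group and then the wild-type, HK2 knockout and PGP knockout 24 h groups. The step from DMSO to 6 h and that from 6 h to 24 h had no overlapping libraries. Neighbours among the DMSO groups overlapped, as did neighbours among the 24 h groups.

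TSC22D2 (ENSG00000196428, chr3:150408335-150466431, plus strand, 3 coding transcripts) rose at 6 h and fell between 6 h and 24 h. It was at 8.98, 11.5 and 9.12 CPM in wild-type DMSO libraries. At 6 h it was at 18.8, 18.1 and 22.5 CPM, and at 24 h at 11.9, 9.52 and 9.14 CPM. The 6 h libraries lay above those of both other wild-type groups. The rise at 6 h was 1.01 ± 0.20 (log2, SE), or 2.01-fold (edgeR adjusted p = 9.43e-04), and 613 genes had a larger change. From 6 h to 24 h TSC22D2 fell by 0.96 ± 0.20 on the log2 scale (edgeR adjusted p = 0.00194). Both comparisons share the same 6 h libraries. The 24 h value differed from DMSO by 0.05 ± 0.21 (edgeR adjusted p = 0.896).

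The knockouts have no 6 h group. In them the mean TSC22D2 level was 10.0 ± 1.32 CPM (SD, n = 3) in HK2 knockout cells in DMSO and 12.7 ± 3.29 CPM (SD, n = 3) at 24 h. In PGP knockout cells the means were 10.7 ± 2.34 CPM and 12.7 ± 1.27 CPM (SD, n = 3 each). The changes of 0.35 ± 0.21 (edgeR adjusted p = 0.224) and 0.23 ± 0.21 (edgeR adjusted p = 0.443) did not pass the test, and the libraries overlapped. The differences in response from wild-type cells were 0.30 ± 0.30 for HK2 and 0.18 ± 0.30 for PGP (edgeR adjusted p = 1.0 for each). The wild-type 6 h group was the only one of the 7 whose TSC22D2 libraries overlapped none of the others. How many tested genes have such a group was not counted.

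TSC22D4 (ENSG00000166925, chr7:100463359-100479279, minus strand, 4 coding transcripts) was at 21.5, 16.7 and 25.1 CPM in wild-type DMSO libraries. At 6 h it was at 26.2, 6.98 and 23.6 CPM, the low value being that of the outlying library, with 32 counts against 123 and 126. The 6 h change was -0.15 ± 0.29 (edgeR adjusted p = 0.751), and without that library it was 0.23 ± 0.21 (edgeR adjusted p = 0.498). Neither passed the test, and the direction turned on this library.

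Mean TSC22D4 levels at 24 h were 32.6 CPM in HK2 knockout and 30.2 CPM in PGP knockout cells, against 22.8 and 22.7 CPM in DMSO. The wild-type 24 h libraries were at 27.3, 24.4 and 32.3 CPM. HK2 knockout libraries went from 24.6, 21.4 and 22.5 CPM in DMSO to 31.8, 23.9 and 42.0 CPM. PGP knockout libraries went from 23.3, 24.0 and 20.9 CPM in DMSO to 36.02, 25.1 and 29.4 CPM. Only in the PGP knockout did the treated libraries not overlap their DMSO libraries. The share of all tested genes separated in this way was not counted. The changes of 0.40 ± 0.28 in wild-type (edgeR adjusted p = 0.305), 0.52 ± 0.28 in HK2 knockout (edgeR adjusted p = 0.176) and 0.41 ± 0.29 in PGP knockout cells (edgeR adjusted p = 0.294) did not pass the test.

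Averaged over the 3 genotypes, a contrast added after these values were seen, TSC22D4 rose by 0.44 ± 0.16 (log2, SE), or 1.36-fold (edgeR adjusted p = 0.0255). That contrast called 53.8% of all tested genes. The call was lost when any 1 of 6 libraries was left out, with estimates of 0.35 to 0.41 and edgeR adjusted p-values of 0.0541 to 0.0829. Those libraries were replicate 2 of wild-type DMSO, replicate 3 of wild-type 24 h, replicate 2 of HK2 knockout DMSO, replicate 3 of HK2 knockout 24 h, replicate 3 of PGP knockout DMSO and replicate 1 of PGP knockout 24 h. Over the same contrast TSC22D2 changed by 0.21 ± 0.12 and did not pass (edgeR adjusted p = 0.154), and the described value for TSC22D3 was 2.82 ± 0.09. The annotated gene C7orf61 overlaps TSC22D4 on the same strand. No gene of the count table was matched to that symbol, so its counts could not be looked at.

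TSC22D1 (ENSG00000102804, chr13:44432143-44577147, minus strand, 7 coding transcripts) was near the detection limit. Wild-type libraries held 2, 4 and 3 counts in DMSO, 4, 5 and 3 at 6 h, and 5, 6 and 8 at 24 h. HK2 knockout libraries held 1, 2 and 4 counts in DMSO and 6, 4 and 16 at 24 h. PGP knockout libraries held 7, 4 and 8 counts in DMSO and 9, 9 and 10 at 24 h. The summed counts, scaled to depth, were 2.19 times as high at 24 h as in DMSO in wild-type cells (95% interval 0.944 to 5.49). The ratio was 4.06 in HK2 knockout cells (1.72 to 11.1) and 1.35 in PGP knockout cells (0.727 to 2.56). At 6 h it was 1.43 (0.551 to 3.83). In DMSO the PGP knockout was at 2.53 times the wild-type level (1.09 to 6.36) and the HK2 knockout at 0.780 times (0.247 to 2.35). The intervals cover counting error only, not the spread between libraries, and 16 of the 26 treated HK2 knockout counts came from replicate 3. Without that library the HK2 knockout ratio was 2.47 (0.848 to 7.64), and without DMSO replicate 3 it was 6.31 (1.94 to 32.6). When the edgeR test was run without a low-count filter, the HK2 knockout change was 1.92 ± 0.68 (adjusted p = 0.0367), against 1.07 in wild-type (adjusted p = 0.412) and 0.41 in PGP knockout cells (adjusted p = 0.786). The HK2 knockout call was lost without treated replicate 3 (1.24 ± 0.81, adjusted p = 0.491) and without DMSO replicate 1 or 2 (1.68 and 1.77, adjusted p = 0.147 each). The PGP knockout difference in DMSO was 1.29 with all libraries (adjusted p = 0.962).

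**Figure D2:**
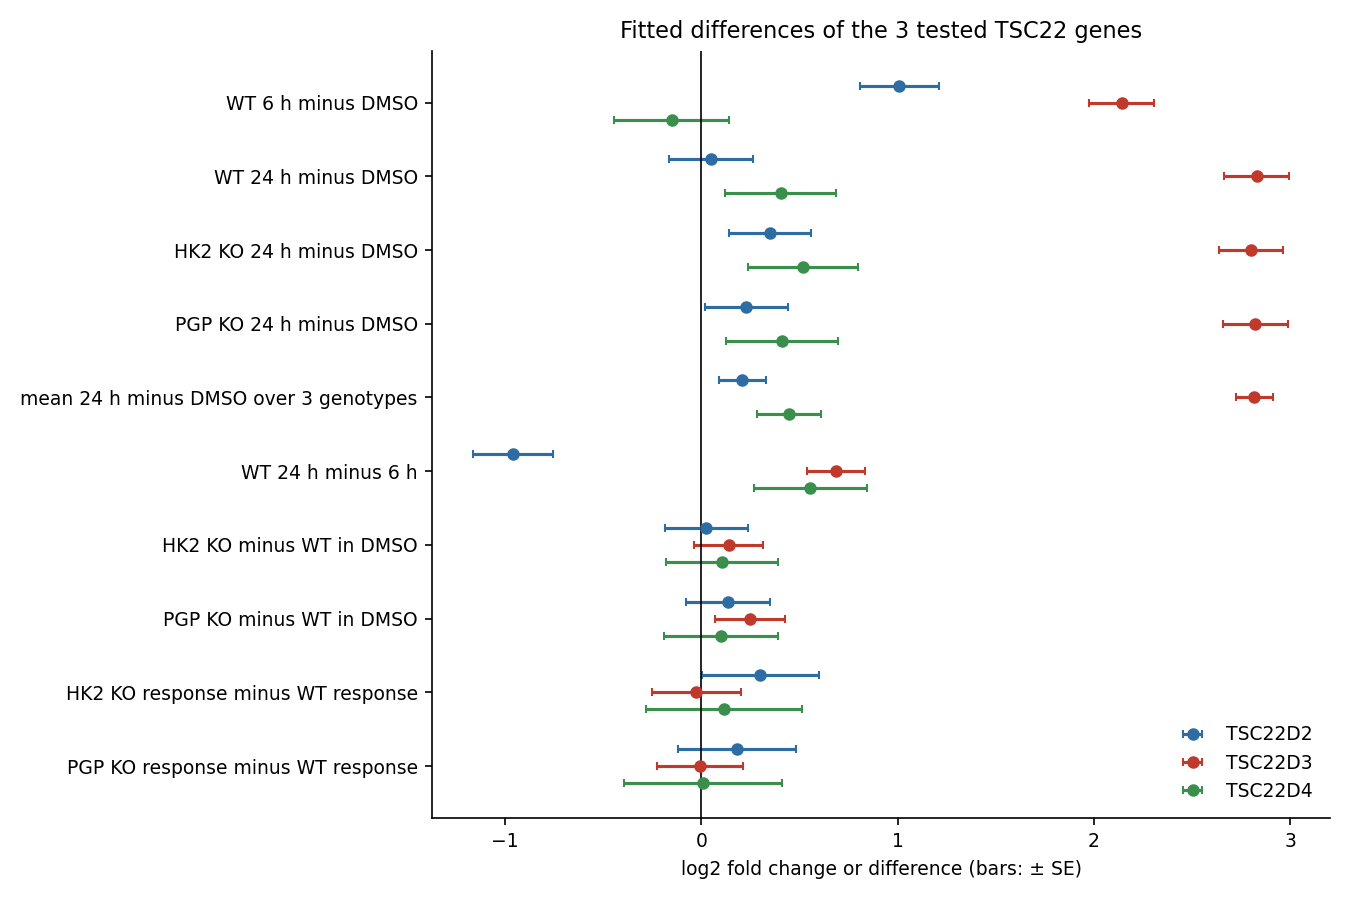
Log2 difference with SE for TSC22D2, TSC22D3 and TSC22D4 in each comparison, from the edgeR fit. TSC22D3 lies at 2.14 at 6 h and at 2.80 to 2.83 at 24 h in the 3 genotypes, TSC22D2 lies at 1.01 at 6 h and at -0.96 from 6 h to 24 h, and TSC22D4 lies between -0.15 and 0.56.

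After ironomycin TSC22D3 held most of the family's counts. In wild-type cells its share of the counts summed over the 4 genes was 34.4% ± 4.09 (SD, n = 3) in DMSO, 64.9% ± 8.51 at 6 h and 74.0% ± 6.24 at 24 h. The share went from 35.2% ± 2.26 to 72.9% ± 3.67 in HK2 knockout cells and from 35.9% ± 2.88 to 75.4% ± 4.03 in PGP knockout cells. In DMSO, TSC22D4 held the largest mean share, at 43.8% in wild-type, 44.5% in HK2 knockout and 41.7% in PGP knockout cells. The TSC22D4 share at 24 h was 18.4%, 18.8% and 16.5%, beside the CPM values given above. TSC22D2 held 20.6% of wild-type counts in DMSO, 17.7% at 6 h and 6.75% at 24 h. Counts of the family as a whole summed to 47.0 to 49.8 CPM in wild-type DMSO libraries, 112 ± 13.8 CPM (SD, n = 3) at 6 h and 156 ± 27.5 CPM (SD, n = 3) at 24 h. These shares contain the values that chose TSC22D3 and are not tested.

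**Figure D3:**
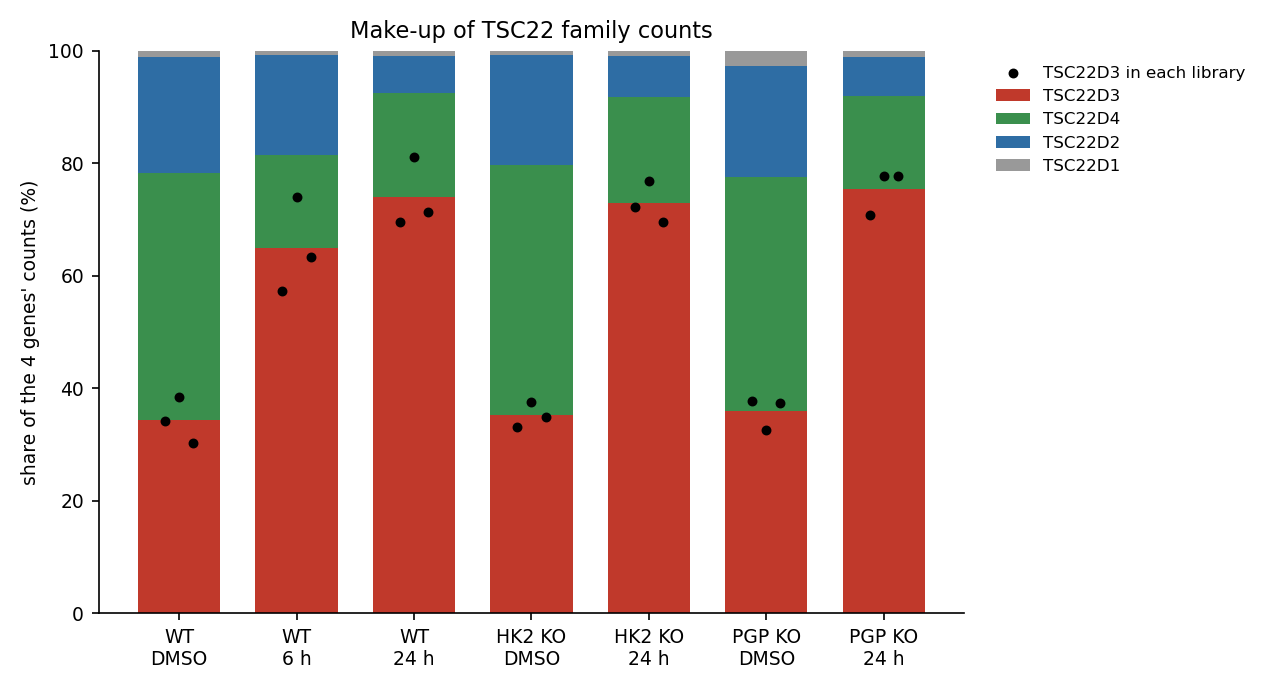
Share of the counts summed over the 4 TSC22 family genes that belongs to each gene, in percent, as group means, with points for the TSC22D3 share of each library. TSC22D3 holds 34.4% to 35.9% in the DMSO groups, 64.9% at 6 h and 72.9% to 75.4% at 24 h.

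Across all 21 libraries pairs of members had the following correlations, given as a description. Pearson's r of log2 CPM was 0.385 between TSC22D2 and TSC22D3, 0.309 between TSC22D3 and TSC22D4 and -0.233 between TSC22D2 and TSC22D4. Spearman's rho for the same pairs was 0.384, 0.525 and 0.0779. After group means were removed r was 0.0719, -0.311 and 0.00193, so the sign for TSC22D3 and TSC22D4 turned. Among the 9142 genes that averaged 5 CPM or more, those most like TSC22D3 were KLHDC7B (r = 0.986), SEC24D (0.980), STAT2 (0.980), KIZ (0.978), EIF1 (0.978) and ORM1 (0.978). SEC24D is a COPII vesicle coat subunit, STAT2 an interferon signalling factor, EIF1 a translation start-site factor and ORM1 an acute phase protein. In all, 38 genes had r over 0.95 with TSC22D3 and 229 had r over 0.9. Libraries of 1 group share their treatment, and after group means were removed r for these 6 genes was 0.110 to 0.613. The ranking uses the 24 h values that chose TSC22D3. KLHDC7B and ORM1 averaged 7.35 and 16.0 CPM and rose by 8.92 and 5.27 (log2) at 24 h in wild-type cells. Their treated libraries carried both over the 5 CPM cut. No gene had r over 0.9 with TSC22D2, whose nearest genes were COX19 and TUBE1 (r = 0.837 each).

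Genes of the pathways around TSC22D3 were counted in wild-type cells from 6 lists. These lists were chosen with earlier results known, so the counts are a description beside the share of all tested genes called. Some listed genes, near the floor in DMSO, passed the low-count filter only through treated libraries. Their calls are part of these counts and are not read as a result. Of all tested genes, 10.9% were called higher and 11.1% lower at 6 h, and 15.3% higher and 14.6% lower at 24 h. The median log2 change of all tested genes was 0.02 at 6 h and 0.03 at 24 h.

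Of 30 genes known to be induced by glucocorticoids, other than TSC22D3, 21 were tested. At 6 h 7 rose (33.3%, against 10.9% of all tested genes) and 2 fell (9.52% against 11.1%), with a median log2 change of 0.20. At 24 h 6 rose (28.6% against 15.3%) and 3 fell (14.3% against 14.6%), with a median of 0.14. Those that rose include DDIT4, BIRC3 and ISG20, at 0.0696, 0.166 and 0.264 CPM in wild-type DMSO. Their wild-type 24 h means were 2.91, 3.71 and 6.58 CPM, and only treated libraries carried them over the filter. DDIT4 and BIRC3 were also among those that rose at 6 h. The counts of risen genes thus rest partly on genes that entered through the groups where they are high. TNFAIP3 and NFKBIA, which restrain NF-kappaB and are also its targets, rose at 24 h by 1.47 ± 0.19 (edgeR adjusted p = 4.41e-06) and 0.80 ± 0.13 (edgeR adjusted p = 5.76e-05). ISG20, an interferon-stimulated exonuclease, rose by 4.54 ± 0.86 from very few counts (edgeR adjusted p = 3.22e-04). The chemokine receptor CXCR4 fell by 1.04 ± 0.16 on the log2 scale (edgeR adjusted p = 3.01e-05). Among the genes most used beside GILZ as readouts of the receptor, FKBP5 changed by -0.37 at 6 h (edgeR adjusted p = 0.141) and -0.17 at 24 h (edgeR adjusted p = 0.506). PER1 changed by -0.43 (edgeR adjusted p = 0.172) and 0.29 (edgeR adjusted p = 0.325). Between 6 h and 24 h, however, PER1 rose by 0.71 ± 0.22 (edgeR adjusted p = 0.0256). Its 24 h change was 0.57 ± 0.21 in HK2 knockout cells (edgeR adjusted p = 0.0478) and -0.33 ± 0.21 in PGP knockout cells (edgeR adjusted p = 0.253). KLF9 rose at 6 h by 0.90 ± 0.17 (edgeR adjusted p = 4.11e-04), and its 24 h value of 0.14 did not pass (edgeR adjusted p = 0.587). ZBTB16, at about 1 CPM, changed by -0.09 at 24 h (edgeR adjusted p = 0.909). DUSP1 and SGK1 were among 9 genes under the filter, with 38 and 24 counts over all libraries.

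Of 20 genes for the glucocorticoid receptor and its chaperones, 18 were tested. At 6 h 3 rose (16.7%, against 10.9% of all tested genes) and 8 fell (44.4% against 11.1%), with a median of -0.42. At 24 h 3 rose (16.7% against 15.3%) and 11 fell (61.1% against 14.6%), with a median of -0.63. The receptor gene NR3C1 went from 133 ± 13.9 CPM in DMSO to 191 ± 4.42 CPM at 6 h and 166 ± 8.69 CPM at 24 h (SD, n = 3 each). It rose by 0.52 ± 0.10 at 6 h (edgeR adjusted p = 8.35e-04) and 0.32 ± 0.10 at 24 h (edgeR adjusted p = 0.0205). The genes that fell were led by general heat-shock chaperones, which serve many clients besides the receptor. HSP90AA1 fell by 1.14 ± 0.10 on the log2 scale at 24 h (edgeR adjusted p = 1.68e-08), HSP90AB1 by 0.69 ± 0.11, the co-chaperone gene DNAJA1 by 1.29 ± 0.15 and the co-chaperone gene FKBP4 by 1.32 ± 0.16 (edgeR adjusted p = 2.21e-06 for the last). All 4 of these passed the test.

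Of 24 FOXO factors and targets in the table, 21 were tested. At 6 h 9 rose (42.9%, against 10.9% of all tested genes) and 1 fell (4.76% against 11.1%), with a median of 0.52. At 24 h 8 rose (38.1% against 15.3%) and 2 fell (9.52% against 14.6%), with a median of 0.56. BCL6, among those that rose at 6 h, and KLF2, among those that rose at 24 h, passed the filter only through treated libraries. Their wild-type DMSO means were 1.25 and 0.125 CPM. FOXO3 went from 21.5 ± 3.91 CPM in DMSO to 40.8 ± 4.43 CPM at 6 h and 40.5 ± 0.776 CPM at 24 h (SD, n = 3 each). Its rise was 0.92 ± 0.14 at 6 h and 0.91 ± 0.14 at 24 h (edgeR adjusted p = 2.64e-05 at 24 h). MXI1, a MYC antagonist, rose by 1.04 ± 0.12 at 24 h (edgeR adjusted p = 8.75e-07), and the ubiquitin ligase gene FBXO32 went from 7.55 to 29.7 CPM at 6 h and 23.6 CPM at 24 h. IL7R fell by 1.60 ± 0.27 on the log2 scale at 24 h. FOXO1 had 34 counts over all libraries and was not tested. Means at 24 h in the knockouts were 41.0 CPM (HK2) and 42.6 CPM (PGP) for FOXO3, against 21.8 and 23.6 CPM in DMSO. BCL6 stands in both the FOXO and the glucocorticoid list, and FKBP5 in both the glucocorticoid and the receptor list.

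TSC22D2 and TSC22D4 act with the NRBP1, WNK and SPAK pathway, of which 13 of 17 genes were tested. At 6 h 0 were higher and 1 was lower (7.69%, against 11.1% of all tested genes), with a median of -0.03. At 24 h 1 was higher and 1 lower (7.69% each, against 15.3% and 14.6%), with a median of 0.02. Most tested genes outside the list did not pass either. NRBP1, the pseudokinase partner, was at 34.1 CPM in DMSO and 41.1 CPM at 24 h (log2 0.27, edgeR adjusted p = 0.263). WNK1 was at 172 and 196 CPM (log2 0.18, edgeR adjusted p = 0.22). The WNK substrate kinase genes STK39, which encodes SPAK, and OXSR1 changed by -0.07 (edgeR adjusted p = 0.839) and -0.20 (edgeR adjusted p = 0.305) at 24 h. The cotransporter gene SLC12A7 rose by 0.63 ± 0.23 (edgeR adjusted p = 0.0451), and CUL3, a ubiquitin ligase scaffold, fell by 0.53 ± 0.12 on the log2 scale.

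Of 14 reported binding partners of GILZ, 13 were tested. At either time 1 rose (7.69%) and 2 fell (15.4%), with medians of 0.02 at 6 h and -0.11 at 24 h. Among all tested genes 10.9% rose and 11.1% fell at 6 h, and 15.3% and 14.6% at 24 h, so the partners' fallen share was near that of all genes. The transcription factor gene CEBPB rose by 1.62 ± 0.24 at 24 h, while MDM2 fell by 0.62 ± 0.12 and HRAS by 0.54 ± 0.19 on the log2 scale. Of 18 TGF-beta and SMAD pathway genes, 15 were tested. At 6 h 2 rose (13.3%, near the 10.9% of all tested genes) and at 24 h 5 rose (33.3% against 15.3%), with 0 lower at either time and medians of 0.08 and 0.43. SKIL, a SMAD repressor induced by TGF-beta, rose by 1.54 ± 0.17 at 24 h, SMAD3 by 0.68 ± 0.15 and the receptor gene TGFBR1 by 0.62 ± 0.16. Without the outlying 6 h library, the glucocorticoid list had 8 higher and 1 lower at 6 h, and the receptor list 2 and 8. The FOXO list had 10 and 1, the WNK list 0 and 1, the GILZ partners 1 and 3, the TGF-beta list 2 and 1. The shares of all tested genes given above come from the fit with all libraries and not from this fit.

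**Figure D4:**
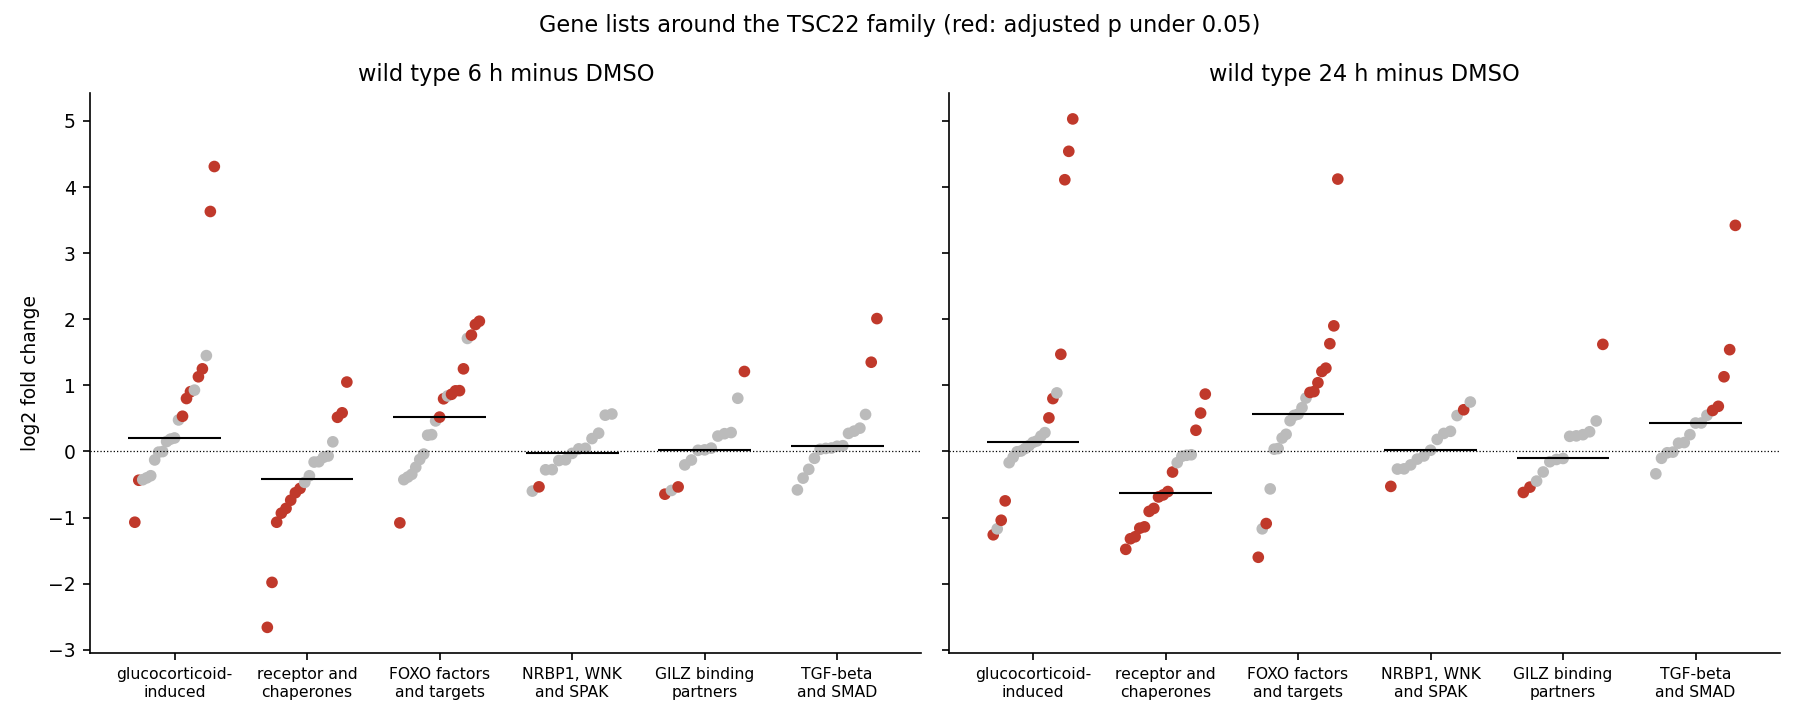
Log2 difference from DMSO of each tested gene of the 6 lists in wild-type cells at 6 h and 24 h, with the list medians as lines and genes with an edgeR adjusted p under 0.05 in red. The FOXO list has medians of 0.52 and 0.56, and the receptor and chaperone list has medians of -0.42 and -0.63.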

How the data were processed

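RNA of 21 MV4-11 libraries was measured with QuantSeq 3′ sequencing, in 7 groups of 3. The values are raw read counts per gene as deposited by the authors. Per the submitters' processing notes, bcl2fastq 2.20.0.422, HISAT2 and HTSeq were used with hg19. The strand setting is not given in the sources used here, so reads of a gene and of an antisense partner cannot be told apart. NCBP2L, annotated opposite TSC22D3, had 0 counts over all libraries. TSC22D1-AS1, annotated opposite TSC22D1, was not in the count table.

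Counts were scaled with TMM, filtered with filterByExpr (minimum count 10, minimum total 15) and fitted over all 7 groups with edgeR 4.0.16 (R 4.3.3, limma 3.58.1) by the quasi-likelihood test, with Benjamini-Hochberg adjustment over 11610 genes and a threshold of 0.05. The common biological coefficient of variation was 0.149. Levels are CPM on TMM-adjusted library sizes, and correlations used log2 CPM with a prior count of 2. The script was tested on simulated data. Alternatives were RLE size factors, no filter, DESeq2 1.42.0, a replicate block, the compared groups alone, and leaving out each library. For TSC22D1 in HK2 knockout cells, leaving out a library without a filter was added after seeing the data. The contrast averaging 3 genotypes was added after seeing the data. Ratios of TSC22D1 counts carry exact 95% intervals.

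The members and lists were chosen with earlier results of these data known. From each list the text names up to 4 genes with the smallest adjusted p at 24 h in wild-type cells among those called, plus NR3C1, FKBP5, PER1, KLF9, ZBTB16, FOXO1, FOXO3, NRBP1, WNK1, STK39 and OXSR1. It also names the 6 genes most correlated with TSC22D3. COX19, TUBE1, DUSP1, SGK1, DDIT4, BIRC3, KLF2 and BCL6 were named after their values were seen. A gene that the rule names is not reported here. Same-numbered DMSO and 24 h libraries of the PGP knockout deviated together (r = 0.243, 0.164 and 0.247), a hint that those numbers pair libraries. For DMSO and 24 h, r was 0.166, 0.0504 and 0.236 in wild-type cells and 0.0396, -0.0394 and 0.121 in HK2 knockout cells. For wild-type 6 h and DMSO r was 0.0491, 0.164 and 0.347. Against wild-type DMSO, r was 0.205, 0.0291 and 0.161 for HK2 knockout DMSO and 0.0929, 0.0835 and 0.0949 for PGP knockout DMSO. By these correlations the hint was uneven. The S numbers in the library labels also run in blocks by replicate number, across all genotypes and treatments. What the S numbers stand for is not given. The values reported come from the fit without a block, and the block was run as an alternative. Protein sequences were not used here.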

Additional observations from a re-analysis of the deposited data

How the results depend on the processing

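Calls for TSC22D3 and TSC22D2 at 6 h and for TSC22D2 between 6 h and 24 h held under each alternative run, with ranges of 2.06 to 2.25, 0.91 to 1.12 and -0.88 to -1.10 (log2). The 24 h difference of TSC22D3 ranged from 2.59 to 2.96 in wild-type, 2.74 to 2.87 in HK2 knockout and 2.74 to 2.86 in PGP knockout cells. Of 402 recomputed values of the 3 tested members, 375 kept their direction and their side of the threshold. That count includes TSC22D3 values from the 24 h libraries. Those values chose the gene and carry no test, so the count is no support for them. The replicate block changed no call of a member. With it the TSC22D4 difference in response of the PGP knockout was -0.0327 against 0.009, and the HK2 knockout in DMSO had 19 called genes against 1.

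Leaving out 1 library at a time turned small differences around. The ranges were -0.45 to 0.23 for TSC22D4 at 6 h and -0.0897 to 0.147 for TSC22D2 at 24 h in wild-type cells. In DMSO, HK2 knockout against wild-type ranged from -0.085 to 0.142 for TSC22D2 and from -0.0369 to 0.252 for TSC22D4, and PGP knockout from -0.0222 to 0.282 and from -0.0424 to 0.247. The difference in response ranged from -0.17 to 0.20 (HK2) and -0.16 to 0.22 (PGP) for TSC22D3, and from -0.12 to 0.30 and -0.15 to 0.15 for TSC22D4. The mean 24 h change of TSC22D4 ranged from 0.35 to 0.50. Called genes ranged from 1271 (without wild-type 24 h replicate 3) to 2220 between 24 h and 6 h (1922 with all libraries), and from 0 to 8 for HK2 knockout in DMSO.

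With only the compared groups in the fit, 1212 genes were called at 6 h (2556 with all groups), 749 between 24 h and 6 h, 17 for HK2 and 2 for PGP knockout in DMSO, and 1 for the PGP response; that fit has fewer libraries. Without a filter, 59 and 96 genes were called for HK2 and PGP knockout in DMSO, and 17 and 18 for their responses. DESeq2 called 23 and 5 in DMSO. The causes were not tested. With the compared groups alone, the glucocorticoid list had 4 higher and 1 lower at 6 h (7 and 2 with all groups). The FOXO list had 3 lower at 6 h without a filter. In these fits, counts of 0 to 2 in the other lists moved by 1 at most. The shares of all tested genes called higher and lower in these fits are not given here. Depth limits TSC22D1. Its 55 recomputed ratios all stayed within the counting interval of the ratio reported. Those intervals are wide and the ratios reuse most of the same counts, so this does not show stability. The HK2 knockout ratio ranged from 2.47 to 6.31 when 1 library was left out.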
